A study of Mus musculus with 31 samples.

Results

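Kinesins are motor proteins that walk along microtubules or take them apart, and tubulins are the proteins from which microtubules are built. The transcripts described here are the 60 genes of the count table whose symbol is Kif or Kifc with a number, or starts with Tuba, Tubb or Tubg and a number, out of 20544 gene symbols. They comprise 42 kinesins and 18 tubulins. Of the kinesins, 16 act in the mitotic or meiotic spindle and 26 act in transport or elsewhere. The tubulins are 7 alpha, 9 beta (including the processed pseudogene Tubb2a-ps2) and 2 gamma genes. A further 13 symbols that begin with Kif or Tub fell outside the rule, among them the adaptor gene Kifap3, the gamma-tubulin complex genes and the delta and epsilon tubulins. Of the 60 members, 59 had a count in at least 1 embryo, 35 had a count in each of the 31 embryos, and 41 passed the filter on low counts and were tested.

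The data are RNA-seq counts from single mouse 2-cell embryos, collected 32 h after insemination (HPI). Sperm came from wild-type C57BL/6J males of 12 to 14 weeks and oocytes from superovulated CD1 females of 8 to 10 weeks, so every embryo was an F1 of these stocks. Sperm energy restriction and recovery (SER) is an incubation of sperm without glucose and pyruvate until they stop moving, after 15 to 45 min, followed by the return of both nutrients. Control sperm of the other cauda epididymis stayed in complete medium, and all oocytes were then inseminated and cultured alike. The control group held 16 embryos and the SER group 15, and each embryo gave its own library by the Smart-seq3 protocol, a method that reads transcripts along their length. The labels tie no embryo to a sire, an oocyte donor or a batch, so the p-values below measure the spread between these embryos only.

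In the first cleavages the embryo builds its spindles from tubulin and motors that the oocyte has stored, while its own genome is switched on during the 2-cell stage in the mouse. Spindle kinesins slide microtubules apart (Kif11), depolymerize their ends (Kif2a, Kif2c, Kif18a), move chromosome arms (Kif4, Kif22), organize spindle poles (Kifc1) and build the midbody at cytokinesis (Kif14, Kif20a, Kif23). Other kinesins, such as those of the Kif1, Kif3 and Kif5 groups, carry organelles, vesicles or ciliary cargo. Alpha and beta tubulin form the dimer of the microtubule wall, with closely related isotypes that differ mostly at their acidic tails, and gamma tubulin nucleates new microtubules.

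Total counts on genes ran from 532945 to 2085222 in control- and from 642321 to 3088396 in SER-generated embryos, and were higher in the SER group (difference of mean log2 total 0.589, 2-sided permutation test, p = 0.0189). Levels are given as CPM, a gene's counts scaled by the total of its library, and 3 counts, the floor used here, are 5.63 CPM in the smallest library and 0.971 CPM in the largest. Each library holds both cells of an embryo and gives shares of a total, so fewer transcripts of a gene and more of all others cannot be told apart. Of 19 listed oocyte genes, 18 had counts in each group, led by Dppa3, Btg4 and Bcl2l10, and Oog1 was at 0. The summed level of that list was 5670 to 24105 CPM in control- and 5823 to 18098 CPM in SER-generated embryos. Zygotic genes were present in each embryo, with a summed level of at least 200.7 CPM. Of a list of 13 cumulus cell genes, 1 library stood apart, control replicate 5 with 1586 CPM against at most 117.5 CPM in the others. A list of 11 sperm genes summed to 58.8 to 476.6 CPM in control- and 32.1 to 546.5 CPM in SER-generated embryos, led by Tuba3b and Tuba3a, which are themselves members. On the zygotic index defined below, control replicate 4 and SER replicate 15 stood far below the rest, and the calls on the index are given with and without them.

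Tubulin genes resemble each other so closely that many reads cannot be placed on a single one. To show where this limits the counts, the last 60 coding bases, stop codon included, were taken from GENCODE vM21 transcripts on GRCm38, the build that the submitters' notes name as mm10. Capitals mark bases within a 45-base window, the length of the longer read, that also occurs in the transcript of another gene. The tails of 4 alpha tubulins read as follows.

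Tuba1c: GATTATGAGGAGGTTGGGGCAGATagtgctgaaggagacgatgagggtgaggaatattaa
Tuba3a: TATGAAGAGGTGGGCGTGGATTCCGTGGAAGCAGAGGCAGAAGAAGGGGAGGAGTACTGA
Tuba3b: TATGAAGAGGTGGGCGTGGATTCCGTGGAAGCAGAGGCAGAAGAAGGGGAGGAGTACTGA
Tuba4a: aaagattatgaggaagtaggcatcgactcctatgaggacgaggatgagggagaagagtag

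The tails of Tuba3a (chr6:125278274-125286042, minus strand) and Tuba3b (chr6:145615757-145621479, plus strand) were identical over all 60 bases, and each was shared with the other alone. The tail of Tuba4a held no shared window. Over the whole exonic sequence, 75.7% of 45-base windows of Tuba1b, 65.5% of those of Tuba1a and 53.5% of those of Tuba1c occurred in another gene. For Tuba3a the share was 37.2% and for Tuba3b 32.4%. The beta tubulins follow, of which Tubb3 and Tubb5 come up again below because they went opposite ways on the zygotic index.

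Tubb2a: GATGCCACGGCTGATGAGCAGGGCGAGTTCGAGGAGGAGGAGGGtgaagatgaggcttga
Tubb2b: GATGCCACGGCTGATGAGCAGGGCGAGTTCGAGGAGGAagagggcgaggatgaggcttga
Tubb3: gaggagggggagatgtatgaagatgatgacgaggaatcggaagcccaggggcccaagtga
Tubb4b: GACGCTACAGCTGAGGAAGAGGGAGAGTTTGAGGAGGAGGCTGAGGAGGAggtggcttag
Tubb5: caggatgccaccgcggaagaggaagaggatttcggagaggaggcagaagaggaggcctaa

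The tails of Tubb3 (chr8:123411424-123422015, plus strand) and Tubb5 (chr17:35833921-35838306, minus strand) held no shared window. That of Tubb4b (chr2:25222160-25224702, minus strand) was shared with 2 pseudogenes, Tubb4b-ps1 and Gm16165, and those of Tubb2a and Tubb2b (chr13:34074274-34078007 and chr13:34126748-34130466, both on the minus strand) with each other and with Tubb2a-ps2. Over the whole exonic sequence the shared windows came to 51.0% for Tubb2a, 40.5% for Tubb4b and 38.4% for Tubb2b. The gamma tubulins, neighbours on chromosome 11, are shown because their order of levels below rests on telling them apart.

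Tubg1: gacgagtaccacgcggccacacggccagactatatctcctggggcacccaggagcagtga
Tubg2: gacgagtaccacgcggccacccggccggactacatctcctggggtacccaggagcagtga

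Neither gamma tail held a shared window, and over all exons the share was 16.6% for Tubg2 and 13.1% for Tubg1. Among the kinesins, Kifc1 (43.3%) and its close copy Kifc5b (40.6%) were the pair with the most shared sequence. Only uniquely mapping reads were kept from the 5′ end, so a gene with much shared sequence can be counted too low, and counts of these paralogs are uncertain.

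Beta and gamma tubulin led the members at this stage. Per kilobase of exon, the median over the 31 embryos was 316.5 CPM per kb for Tubb4b (114.5 to 667.3), a beta isotype found in many dividing and ciliated cells. Tubg2 followed at 215.9 CPM per kb (57.0 to 634.3). They stood at percentiles 99.7 and 99.3 of the genes with a count and a known exon length. Tubb3 (99.4 CPM per kb), an isotype best known from neurons, and Tubb2a (99.3) lay close together, and their ranges of 19.8 to 460.4 and 33.4 to 242.9 overlapped widely. Tubb5, the common beta tubulin of dividing cells, had a median of 78.4 CPM per kb. Tubb6 had a median of 38.6 CPM per kb and Tubb2b of 12.0, and the other beta symbols were nearly absent.

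**Figure D1:**
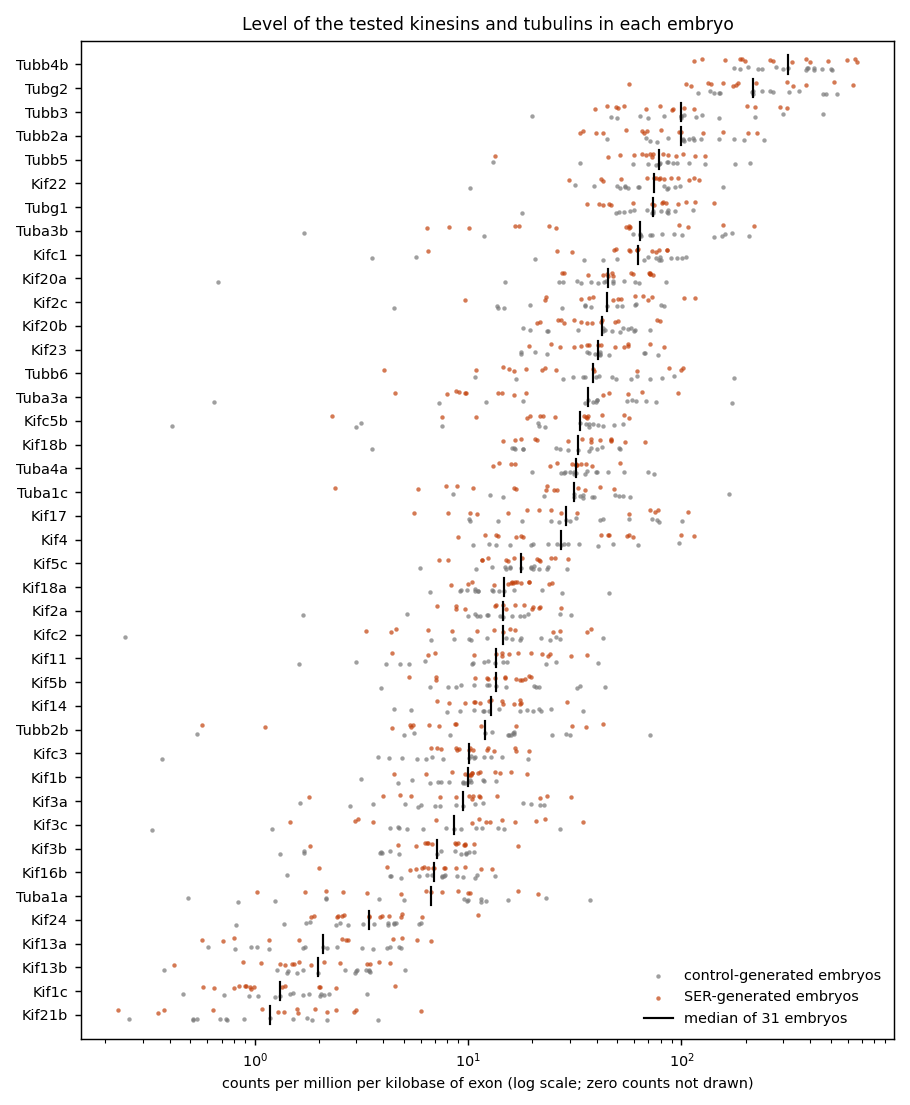
Level of each tested member in each of the 31 embryos, in CPM per kilobase of exon on a log scale, with members ordered by their median. Tubb4b and Tubg2 lead with medians of 316.5 and 215.9 CPM per kb, and the control- and SER-generated embryos overlap for every member shown.

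Within the gamma family the order was almost fixed. Tubg2 (chr11:101155907-101161787, plus strand), the copy known for its place in oocytes and brain, exceeded Tubg1 (chr11:101119938-101126419, plus strand), the copy of most dividing cells, in 30 of 31 embryos. Its share of the family's CPM per kb had a median of 76.9% and ran from 49.1% to 88.9%. Within the beta family Tubb4b led in 23 embryos with a median share of 53.9%, Tubb3 in 7 and Tubb2a in 1. The share of Tubb4b ranged from 16.7% to 81.7%, so single embryos differed widely in isotype make-up. Within the alpha family Tuba3b led in 20 embryos (median share 36.6%), Tuba4a and Tuba3a in 5 each, and Tuba1c in 1. Tuba3a and Tuba3b are best known from testis, but these 2 genes share so much sequence that their split is uncertain. Tuba1a and Tuba1b, the major alpha tubulins of many tissues, had median shares of 4.30% and 1.81%, and these 2 have the most shared sequence of the family.

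**Figure D2:**
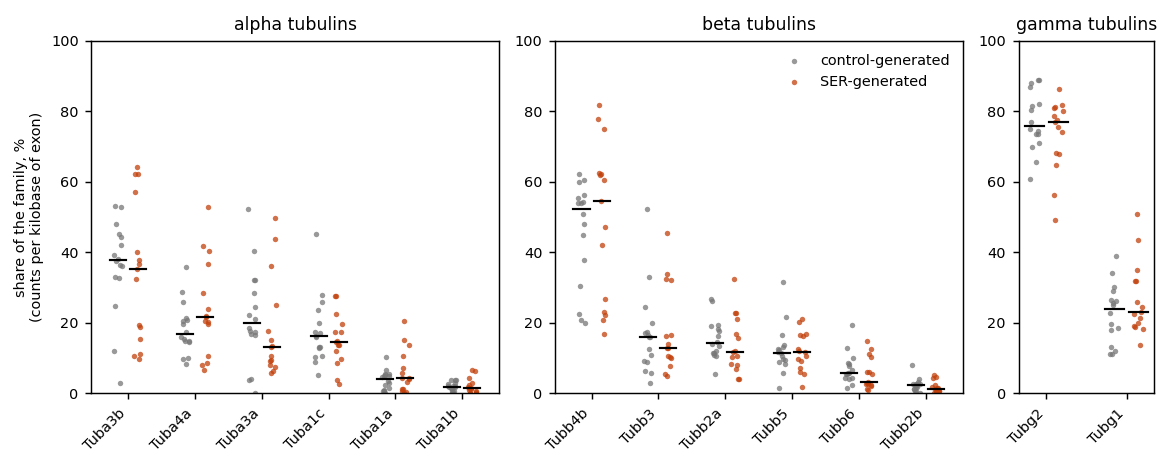
Share of each isotype in the summed CPM per kb of the alpha, beta and gamma tubulins, in percent, for each embryo of the control and SER groups. Tubg2 leads the gamma family in 30 of 31 embryos, whereas the leading alpha and beta isotype changes from embryo to embryo.

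The spindle kinesins made up most kinesin counts. Summed over 16 genes they took 1122 to 3924 CPM in control- (median 2478) and 1514 to 4024 CPM in SER-generated embryos (median 2851). The 26 transport and other kinesins took 494.2 to 1305 CPM (median 1129) and 812.4 to 1299 CPM (median 1074). The highest kinesin per length was Kif22 (chr7:127027729-127042471, minus strand), a motor bound to chromosome arms, at 74.3 CPM per kb. Kifc1 (62.7), Kif20a (45.5), Kif2c (44.7), Kif20b (42.2) and Kif23 (40.6 CPM per kb) came next, and neighbours in this order did not differ beyond the spread between embryos. The first transport kinesin was Kif17 at 28.8 CPM per kb, a motor of dendrites and of the germ line, followed by Kif5c at 17.7. In the kinesin-1 group, Kif5c and Kif5b held median shares of 52.7% and 44.5%, and Kif5a held 0.484%. In kinesin-13, the microtubule depolymerases, Kif2c led in 28 of 31 embryos with a median share of 69.2%. In kinesin-14, the minus-end motors, Kifc1 led in 27. Summed over all 60 members, the families took a median of 0.614% of an embryo's counts.

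Counts left 19 members untested. Kif12 had no count in any embryo, Tubb1 had 1 count in all, and Tubb2a-ps2 had 2. Kif2b, Tubb4a, Tuba8, Kif6, Kif26a and Kif19a had between 7 and 46 counts over all embryos, in 4 to 11 embryos. Another 10 members were seen in over 15 embryos but at low counts, from 90 for Kif26b to 363 for Kif9, among them the spindle motor Kif15 with 310 and Tuba1b with 248. These members were not tested with the filter on.

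The first comparison asks whether embryos from SER sperm differ from control embryos in these transcripts. None of the 41 tested members passed an adjusted p of 0.1 in edgeR's quasi-likelihood test, adjusted over all 8571 genes tested, and none of the 8571 did (0.0%). At an unadjusted p under 0.05 there were 2 of 41 members and 491 genes (5.73%). DESeq2, run without the filter on low counts, called 0 members and 45 of 17803 genes (0.253%). limma voom with sample quality weights called 6 members and 848 genes (9.89%). The estimates nevertheless fell to different sides by family, and these are described next as estimates.

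Estimates for 12 of the 13 tested tubulins lay below 0, that is lower with SER sperm, against 47.3% of all genes. Their median log2 fold change was -0.47, against 0.02 for all genes tested. This held for 5 of 5 alpha tubulins (median -0.72) and 6 of 6 beta tubulins (median -0.38), and only Tubg1 lay above 0. In the same comparison 13 of 17 tested oocyte transcripts lay below 0 (median -0.20), and so did the 3 tested genes of the sperm list, Ldhc and the members Tuba3a and Tuba3b. Their part in the tubulin estimates was not tested. With log2 library size as a covariate, the tubulins counted lower were 10 and their median -0.30. Leaving out control replicate 5, the library with cumulus cell transcripts, left 12 tubulins lower, with a median of -0.35. Over all fits without 1 embryo, 11 or 12 tubulins lay lower, with medians from -0.51 to -0.35. In DESeq2's fit, which covered 17803 genes without the filter on low counts, the median of all genes was -0.11 and 12 of 13 tubulins lay lower. Paralogs share reads, so these estimates are not 13 separate observations, and library size differed between the groups as given above.

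Tuba1c (chr15:99029891-99038110, plus strand), an alpha tubulin of many tissues, had the smallest p of all members. It ran from 19.5 to 381.3 CPM in control- (median 78.7) and from 5.45 to 111.0 CPM in SER-generated embryos (median 52.8). The highest control embryos lay above every SER embryo, while most SER embryos lay within the control range. The log2 fold change was -1.08 (SE 0.37, n = 16 and 15; edgeR, adjusted p = 0.586), and -0.69 without control replicate 3, the highest embryo.

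Tuba4a (chr1:75214228-75219865, minus strand), an alpha tubulin without the usual terminal tyrosine codon, had the second smallest p. It ran from 73.9 to 274.2 CPM in control- (median 124.9) and from 48.2 to 190.4 CPM in SER-generated embryos (median 118.0), with medians close together and the groups overlapping. Its log2 fold change was -0.47 (SE 0.22; edgeR, adjusted p = 0.837). Of its exonic bases, 1379 overlap the gene Stk16 on the other strand, and a strand setting for the counting is not given in the sources used here.

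Tuba3a and Tuba3b had the next largest negative estimates, -0.77 (SE 0.44) and -0.72 (SE 0.44), with edgeR adjusted p = 0.885 and 0.907. Tuba3b ran from 3.02 to 367.8 CPM in control- (median 136.7) and from 11.5 to 386.1 CPM in SER-generated embryos (median 97.3). Leaving out 1 embryo moved Tuba3a to between -1.03 and -0.48. Among the beta tubulins, Tubb2b had an estimate of -0.58 (SE 0.48), but -0.22 without control replicate 4, and Tubb4b, the most abundant, of -0.01 (SE 0.25). Tubb4b ran from 368.2 to 1062 CPM (median 732.0) in control- and from 239.1 to 1393 CPM (median 558.8) in SER-generated embryos. The SER embryos thus reached both higher and lower than the control embryos.

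The spindle kinesins leaned the other way, with 10 of 14 estimates higher in SER-generated embryos, against 52.7% of all genes, and a median log2 fold change of 0.12. With 5 surrogate variables in the fit, 7 of 14 were higher. Over all fits without 1 embryo, 3 to 6 of the 14 lay lower, with medians from 0.08 to 0.20. Without control replicate 4, and likewise without SER replicate 2, 8 of 14 were higher, a share near that of all genes. Kif2c (chr4:117159639-117182639, minus strand), which removes faulty microtubule attachments at kinetochores, ran from 19.6 to 362.2 CPM in control- (median 159.1) and from 42.1 to 507.4 CPM in SER-generated embryos (median 219.2). The groups overlapped, and the log2 fold change was 0.41 (SE 0.32; edgeR, adjusted p = 0.935). Kif11 (chr19:37376403-37421859, plus strand), the motor that pushes spindle poles apart, gave 0.40 (SE 0.34), between 12.1 and 302.1 CPM in control- and 32.7 and 268.7 CPM in SER-generated embryos. Leaving out 1 embryo gave 0.26 to 0.55 for Kif2c and 0.29 to 0.64 for Kif11.

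The transport kinesins lay on both sides, 6 of 14 higher and 8 lower. Kif1b, a carrier of vesicles and mitochondria, had the smallest p among the kinesins, with a log2 fold change of 0.33 (SE 0.19; edgeR, adjusted p = 0.880). It ran from 55.6 to 236.8 CPM in control- (median 166.6) and from 79.4 to 333.6 CPM in SER-generated embryos (median 183.2). Kif21b had the largest estimate of any kinesin, 0.75 (SE 0.49; edgeR, adjusted p = 0.928), at low levels of 0 to 46.1 CPM and 2.78 to 73.5 CPM, and 0.47 without SER replicate 13.

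**Figure D3:**
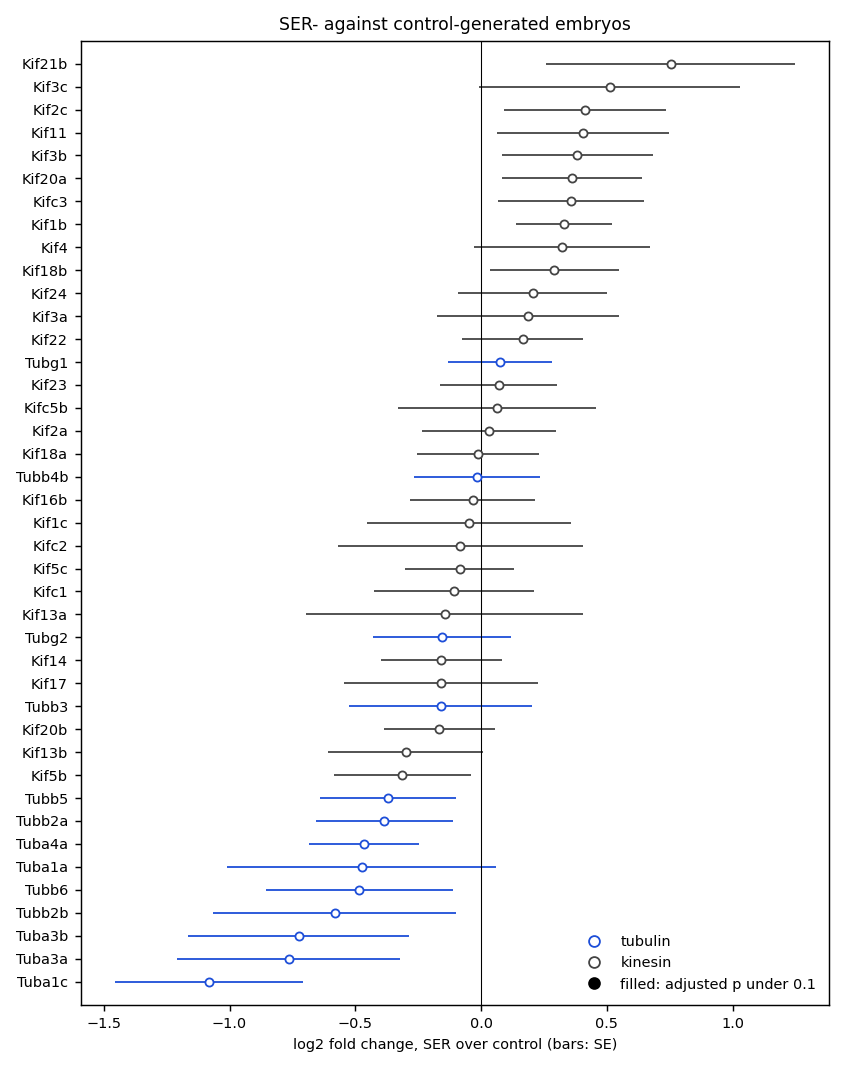
Log2 fold change of SER- over control-generated embryos for the 41 tested members, from edgeR, with bars of 1 standard error; tubulins are blue and kinesins grey. No symbol is filled, since no member passed an adjusted p of 0.1, and 12 of 13 tubulins lie left of 0.

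The calls of limma voom were Kif2c and Kif11 as higher, with log2 fold changes of 0.71 and 0.73, and Tuba3a (-1.44), Tubb2b (-1.32), Tubb6 (-1.10) and Kif17 (-0.91) as lower. Their adjusted p from voom lay between 0.0195 and 0.0929, and none of these members was called by edgeR or DESeq2. Without the filter on low counts, edgeR called 504 of 17803 genes (2.83%) and among them Tubb4a, which had 10 counts in all. With surrogate variables, edgeR called 0 members and 9 genes (0.105%).

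The embryos of each group also differed among themselves in their levels of genes of the 2-cell burst. The second comparison describes how the members varied with these levels, which are not a measure of genome activation as a whole. The zygotic index is the mean log2 CPM of 18 tested genes of a list of 22 genes of the 2-cell burst, among them the Zscan4, Tdpoz and Usp17l families, scaled to a standard deviation (SD) of 1. It did not separate the groups (difference of means 0.0775 SD, 2-sided permutation test, p = 0.838). Control replicate 4 had an index of -3.33 and SER replicate 15 of -2.61, and the other 29 embryos lay between -1.05 and 1.37. A slope is the change in log2 level per SD of the index with the group held fixed, tested by edgeR over all genes.

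Of the 41 tested members, 11 rose with the index at an adjusted p of 0.1, against 20.8% of 8553 genes, and 5 fell, against 13.5%. The 16 calls come to a share near that of all genes, of which 34.3% were called in either direction. The 11 were Tubb5, Kif2c, Kif11, Kif22, Tuba1c, Kif2a, Kif18a, Kifc2, Kif4, Tubb4b and Kif3c. The 5 were Tubb3, Tubb2b, Kif3a, Kif17 and Kif24.

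Most of these calls were lost without the 2 embryos that stand apart. In a fit without control replicate 4 and SER replicate 15, 2 members rose (Tuba1c and Kif18a) and 1 fell (Kif5b), against 7.03% and 2.02% of all genes. The 16 slopes kept their sign. For this fit the index was computed again and scaled to an SD of 1 over the other 29 embryos, whose SD on the index of all embryos was 0.623, so slopes with and without the 2 embryos are per different units. Leaving out control replicate 4 alone kept 12 of the 16 calls, SER replicate 15 alone 13, and SER replicate 8 alone 14. Without SER replicate 10 or SER replicate 14 the falling members numbered 8. Without control replicate 5, the library with cumulus cell transcripts, all 16 were kept. limma voom called 6 as rising, against 11.3% of all genes, and 4 as falling, against 9.79%, and 9 of these 10 were among the 16. Those of the 16 that voom did not call were Tubb5, Tuba1c, Kif2a, Kif18a, Kifc2, Kif3c and Kif3a.

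**Figure D4:**
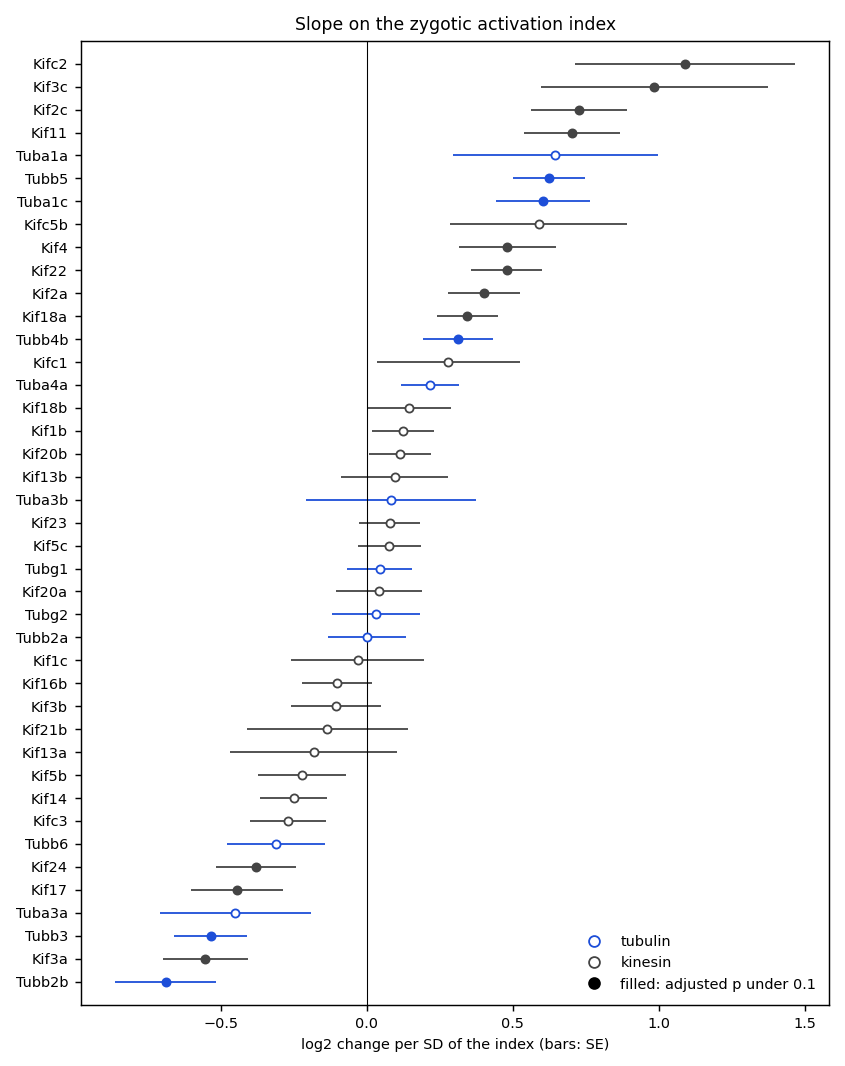
Slope of each tested member on the zygotic index, as change in log2 level per SD of the index, with bars of 1 standard error from edgeR; filled symbols passed an adjusted p of 0.1. Over all embryos Kifc2 has the steepest rise at 1.09 and Tubb2b the steepest fall at -0.69, and without the 2 embryos of lowest index Kifc2 has 0.14, below Tuba1c at 0.41.

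Spindle kinesins held 6 of the 11 rises and 1 of the 5 falls, among 14 tested, where 20.8% of all genes rose and 13.5% fell. Without the 2 embryos of lowest index, 1 of the 14 rose (Kif18a) and 0 fell, against 7.03% and 2.02% of all genes. Over all embryos Kif2c had a slope of 0.73 (SE 0.16, edgeR, adjusted p = 0.00138). It was at 19.6 CPM in control replicate 4 and 42.1 CPM in SER replicate 15, below the range of 59.5 to 507.4 CPM in the other 29 embryos. Without these 2 embryos the slope was 0.30 (adjusted p = 0.223). Kif11 had a slope of 0.70 (SE 0.17; adjusted p = 0.00201), with 12.1 and 32.7 CPM in these embryos and 22.3 to 302.1 CPM in the others, and 0.39 (adjusted p = 0.127) without them.

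Kif22 had a slope of 0.48 (SE 0.12; edgeR, adjusted p = 0.00388). Its levels of 49.8 and 145.6 CPM in the 2 embryos lay below the lowest of the others, 156.0 CPM, and without them the slope was 0.16 (adjusted p = 0.395). Kif18a (chr2:109280738-109341747, plus strand), which damps the movement of chromosomes at the spindle equator, had a slope of 0.34 (SE 0.10; adjusted p = 0.0142) over all embryos and 0.29 (adjusted p = 0.0829) without the 2, but was not called by voom. Kif4 (slope 0.48) and Kif2a (0.40) rose as well, with 0.36 and 0.28 (adjusted p = 0.203 and 0.158) without the 2 embryos. Kif24, a depolymerase of centrioles, fell at -0.38 (SE 0.14; adjusted p = 0.0389), and had -0.35 (adjusted p = 0.149) without them. Of the motors of cytokinesis none was called by edgeR, with slopes of 0.04 (SE 0.15) for Kif20a, 0.11 (SE 0.11) for Kif20b, 0.08 (SE 0.10) for Kif23 and -0.25 (SE 0.12; adjusted p = 0.102) for Kif14. Kif14 was called as falling with DESeq2's size factors and without the group term.

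Beta tubulins split by isotype. Tubb5 had a slope of 0.62 (SE 0.12; edgeR, adjusted p = 0.000385), and was at 43.8 and 44.4 CPM in the 2 embryos of lowest index against 111.0 to 696.4 CPM in the other 29. Tubb3 went the other way at -0.54 (SE 0.12; adjusted p = 0.00188), with 860.0 and 583.8 CPM in the 2 embryos against 37.1 to 556.4 CPM in the others. The 2 embryos thus lay outside the range of all others for both isotypes, low for Tubb5 and high for Tubb3. Tubb5 was not called by voom, whereas Tubb3 was. Tubb2b fell at -0.69 (SE 0.17; adjusted p = 0.00365), with 163.0 and 81.8 CPM against 1.23 to 98.1 CPM. Without the 2 embryos the slopes were 0.25 for Tubb5, -0.19 for Tubb3 and -0.39 for Tubb2b, with adjusted p of 0.138, 0.487 and 0.289. Tubb4b rose at 0.31 (SE 0.12; adjusted p = 0.0536), with 0.24 (adjusted p = 0.271) without the 2, and Tubb2a had a slope of 0.00 (SE 0.13).

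**Figure D5:**
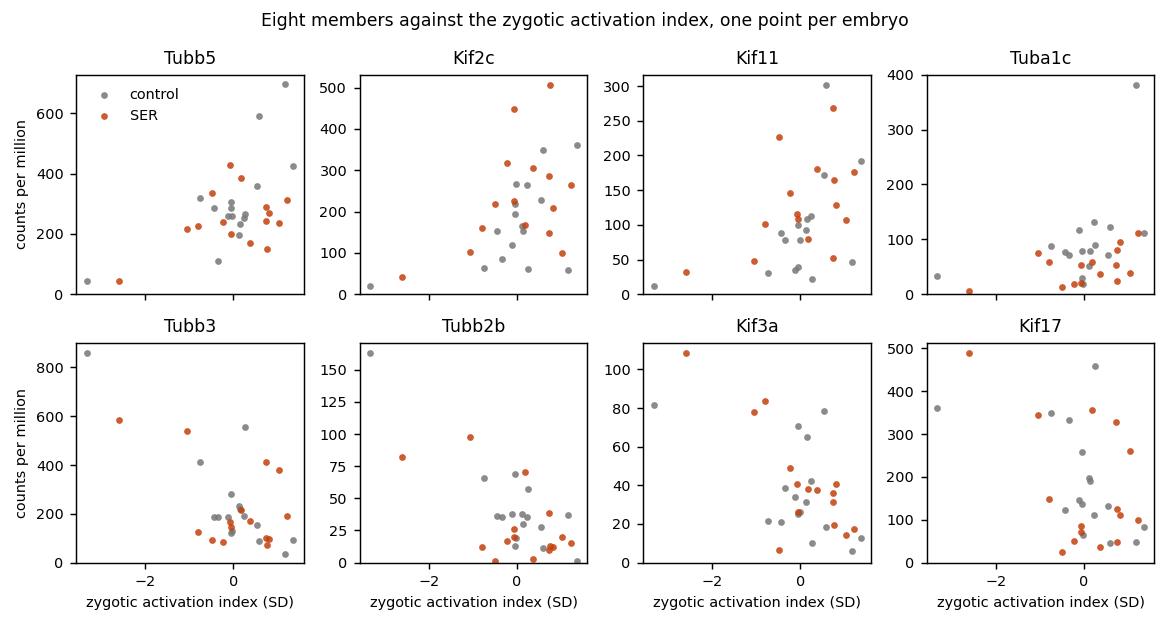
CPM on a linear scale against the zygotic index for 4 members that rose (Tubb5, Kif2c, Kif11, Tuba1c) and 4 that fell (Tubb3, Tubb2b, Kif3a, Kif17), a point for each embryo, coloured by group. The 2 points at the far left, at indices of -3.33 and -2.61, are control replicate 4 and SER replicate 15.

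Of the alpha tubulins, Tuba1c rose, with a slope of 0.60 (SE 0.16; edgeR, adjusted p = 0.00538) and 0.41 (adjusted p = 0.0768) without the 2 embryos, but was not called by voom. The gamma tubulins had slopes of 0.03 (SE 0.15) for Tubg2 and 0.04 (SE 0.11) for Tubg1. Among the transport kinesins, Kif3a, a subunit of the motor that builds cilia, fell at -0.55 (SE 0.15; adjusted p = 0.00529), and Kif17 at -0.45 (SE 0.16; adjusted p = 0.0338). Kif3a was at 81.5 and 108.7 CPM in the 2 embryos and at 5.85 to 83.8 CPM in the others. Without the 2, the slopes were -0.36 (adjusted p = 0.240) for Kif3a and -0.19 (adjusted p = 0.574) for Kif17. Kifc2 (slope 1.09, SE 0.38) and Kif3c (0.98, SE 0.39) were not counted at all in these 2 embryos and had at least 0.975 and 2.46 CPM in the other 29. Over these 29 their slopes were 0.14 (SE 0.24; adjusted p = 0.779) and 0.0824 (SE 0.24; adjusted p = 0.878). The lowest Kifc2 level among the 29, 0.975 CPM in control replicate 3, was below the floor of 3 counts and cannot be told from 0. Of the exonic bases of Kif3c, 3016 overlap 1110002L01Rik and Gm48512 on the other strand. Overlaps of this kind also cover 1271 exonic bases of Kif20a (Cdc23), 1229 of Kif2a (Dimt1) and 832 of Kif4 (Pdzd11), among other members.

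Of 17 tested oocyte transcripts, 9 fell with the same index and 1 rose, while without the 2 embryos of lowest index 0 fell and 3 rose, and their part in the members' slopes was not tested. The index was built from the same libraries, so a slope tells which levels vary together among embryos.

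The RefSeq sequence upstream of the start was available for 47 members on GRCm38.p6 and was searched on both strands for CCAAT, the box bound by the factor NF-Y in many cell-cycle promoters, and for TTTGAA, the core of the CHR element of such promoters. In the 250 bases before the RefSeq start, CCAAT (or ATTGG) was found for 10 of 15 spindle kinesins, 66.7%, against 37.5% of 27025 genes. TTTGAA (or TTCAAA) was found for 5 of 15, 33.3%, against 18.3%. For 5 members (Kif14, Kif17, Kif1a, Kif27 and Kif2c) a RefSeq start lies more than 1000 bases inside the GENCODE gene, so these windows may not show the promoter. Kif14 and Kif2c are among the spindle kinesins counted for TTTGAA, beside Kif11, Kif15 and Kif22, and Kif14 is also among those counted for CCAAT. Of the transport kinesins 6 of 18 held CCAAT (33.3%), and of the tubulins 7 of 14 (50.0%). For TTTGAA these were 3 of 18 (16.7%) and 2 of 14 (14.3%). Among members that rose with the index CCAAT was found in 6 of 10, and among those that fell in 3 of 4. For TTTGAA these were 4 of 10 and 0 of 4. The letters TATAAA and CACGTG were searched as well. They were found for 1 and 0 of 15 spindle kinesins, 6.67% and 0.0%, against 14.3% and 6.86% of all genes. Shares were 16.7% and 5.56% for transport kinesins, and 7.14% and 14.3% for tubulins. The promoters of 3 risers and of Tubb3, which fell, are shown with CCAAT and TTTGAA of either strand in capitals, 5′ to 3′ on the strand of the gene. They lie at chr19:37376132-37376381 (Kif11, plus strand), chr7:127042421-127042670 (Kif22, minus strand), chr2:25224703-25224952 (Tubb4b, minus strand) and chr8:123411303-123411552 (Tubb3, plus strand).

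Kif11: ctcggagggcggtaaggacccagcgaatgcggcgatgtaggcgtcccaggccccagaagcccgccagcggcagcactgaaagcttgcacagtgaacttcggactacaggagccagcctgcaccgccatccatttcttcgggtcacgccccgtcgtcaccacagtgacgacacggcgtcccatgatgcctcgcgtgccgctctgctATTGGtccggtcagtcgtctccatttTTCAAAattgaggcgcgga
Kif22: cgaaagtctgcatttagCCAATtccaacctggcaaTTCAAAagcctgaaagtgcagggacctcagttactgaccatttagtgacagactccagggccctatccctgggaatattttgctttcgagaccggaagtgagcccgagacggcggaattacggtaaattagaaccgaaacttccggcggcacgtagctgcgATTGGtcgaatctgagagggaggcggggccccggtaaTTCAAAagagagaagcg
Tubb4b: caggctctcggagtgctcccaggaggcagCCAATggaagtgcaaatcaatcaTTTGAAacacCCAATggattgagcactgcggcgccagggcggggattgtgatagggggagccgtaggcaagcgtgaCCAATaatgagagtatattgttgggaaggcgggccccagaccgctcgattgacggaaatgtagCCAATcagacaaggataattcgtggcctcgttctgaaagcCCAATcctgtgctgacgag
Tubb3: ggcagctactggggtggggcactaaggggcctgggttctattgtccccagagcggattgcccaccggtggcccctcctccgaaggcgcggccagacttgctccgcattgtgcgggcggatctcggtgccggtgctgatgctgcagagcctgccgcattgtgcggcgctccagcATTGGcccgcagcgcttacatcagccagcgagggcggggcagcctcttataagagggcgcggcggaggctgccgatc

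Tubb4b, the most abundant member, held 5 copies of CCAAT and 1 of TTTGAA, and Kif22 held 2 of each. Kif11 held 1 of each, and Tubb3 held 1 CCAAT and no TTTGAA. Of the risers with a sequence not shown, Tubb5, Kif4 and Tuba1c held CCAAT alone and Kif2c TTTGAA alone. The risers Kif2a, Kif18a and Kif3c held neither. Of the fallers not shown, Kif24 held 4 CCAAT, Kif3a 1 and Kif17 none, all without TTTGAA. The letters alone do not mark a bound site.

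The third comparison asks whether SER-generated embryos vary less among themselves. None of the 41 members and none of the 8571 genes (0.0%) differed in the absolute deviation from the group median at an adjusted p of 0.1 in limma. At an unadjusted p under 0.05 there were 1 member, Kif13a (larger in SER-generated embryos, p = 0.0418 in limma), and 255 genes (2.98%). As estimates, the spread was smaller in the SER group for 19 of 28 kinesins, among them 12 of 14 spindle kinesins, and for 2 of 13 tubulins, against 54.0% of all genes. Kif20a is an example of the first, with an SD of log2 CPM of 1.40 in control- and 0.48 in SER-generated embryos. The control value rests on control replicate 3, at 2.93 CPM against at least 64.5 CPM in the other control embryos, and without it the control SD was 0.57. The lowest SER embryo was at 119.6 CPM. Tubb4b is an example of the second, with SDs of 0.49 and 0.87. The members share embryos, so these counts are not of separate observations. Control replicate 4 was the lowest control embryo for Kif2c (19.6 CPM), Kif11 (12.1), Kifc1 (12.1), Kifc5b (1.51) and Kif22 (49.8). SER replicate 15 was the lowest SER embryo for the same members. How far the counts rest on such embryos, or on the larger libraries of the SER group, was not tested.

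The families also differed in how steady their levels were from embryo to embryo. The biological coefficient of variation from edgeR, the spread beyond counting error, had a median of 81.2% over 5 alpha tubulins, 60.9% over 6 beta tubulins, 52.0% over 14 spindle kinesins and 67.9% over all genes tested. The steadiest member was Kif1b at 38.1%, followed by Tubg1 at 41.1%, and the least steady was Kif13a at 97.7%. These medians carry no test and do not adjust for level. Ranked among genes of like level, the 14 spindle kinesins ran from percentile 4.21 (Kif24) to 84.3 (Kifc5b) of this coefficient. The 5 alpha tubulins ran from percentile 13.3 (Tuba4a) to 93.0 (Tuba3b).

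Partners of the 2 families were taken from lists. No list held a gene past the threshold in the SER comparison. At an unadjusted p under 0.05 in edgeR there were 1 of 17 folding cofactors, 2 of 16 modifying enzymes and 2 of 8 adaptors and light chains. There were also 1 of 30 microtubule dynamics and spindle assembly factors, 1 of 16 dynein and dynactin genes and 0 of 16 ring and augmin genes. Of all genes tested, 5.73% passed the same cut. Among these partners the tubulin folding cofactor Tbca had the largest estimate, -1.45 (SE 0.49; edgeR, adjusted p = 0.528). The others were the tyrosine ligase Ttl (-0.86), the deglutamylase Agtpbp1 (-0.55), the kinesin light chain Klc1 (-0.75), the mitochondrial adaptor Trak2 (0.59), the spindle protein Tacc3 (0.63) and the dynein light chain Dynlrb1 (-0.92), each with an adjusted p of at least 0.615.

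On the zygotic index, 9 of 17 tubulin folding cofactors rose and 1 fell, with a median slope of 0.48 against 0.03 for all genes, of which 20.8% rose and 13.5% fell. They included the chaperonin subunits Cct3 (0.73, SE 0.15), Cct6a (0.85, SE 0.24) and Tcp1 (0.58, SE 0.15), and the cofactor Tbcc (0.67, SE 0.16). Of 16 genes of the gamma-tubulin ring and augmin complexes, 4 rose and 1 fell, all 5 of them augmin subunits, led by Haus2 (1.19, SE 0.27). Of 16 dynein and dynactin genes, 2 light chains rose (Dynll1 and Dynlrb1) and 5 genes fell. Of 8 kinesin adaptors and light chains 3 rose and 3 fell, of 30 microtubule dynamics and spindle assembly factors 3 rose and 3 fell, and of 16 tubulin modifying enzymes 2 fell. Without the 2 embryos of lowest index, when 7.03% of all genes rose and 2.02% fell, 3 folding cofactors rose (Tbca, Vbp1 and Pfdn4) and 0 fell, 2 augmin subunits rose (Haus1 and Haus3), and 4 microtubule dynamics and spindle assembly factors rose (Ckap5, Katna1, Nusap1 and Tpx2). In the same fit the light chain Dynll1 rose, Dynll2 and the kinesin binding protein gene Kifbp fell, and no modifying enzyme was called.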

How the data were processed

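The values are whole-number read counts per gene, deposited by the authors as raw and therefore taken as made before their ComBat-seq step. Reads from the 5′ end, which carry a molecular identifier, and internal reads were aligned apart by the authors with STAR, deduplicated by UMI-tools or Picard, joined again and assigned to genes by featureCounts. The submitters' notes name mm10; annotation, strand setting and tool versions are not given in the sources used here, and batches are not labelled, so none was fitted.

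Counts were tested with edgeR 4.0.16 (R 4.3.3; TMM, filterByExpr with a minimum count of 10 and minimum total of 15, quasi-likelihood test, Benjamini-Hochberg over 8571 genes, threshold 0.1). Spread was tested by limma 3.58.1 on absolute deviations from the group median (log2 CPM, prior count 2). The 3 tests were tested on simulated data. No libraries were identical. Depth of 532945 to 3088396 counts limits low genes, and since internal reads lack an identifier, counting error understates the true error.

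Named were all tested tubulins, the 15 tested kinesins highest per kb, and up to 4 members of smallest p in each direction for the SER comparison and the slope; other kinesins were named after their values were seen. Members and lists were chosen with earlier results of these data known. Lists covered zygotic, oocyte, cumulus and sperm transcripts and the partners named in the text. Alternatives were DESeq2 1.42.0 and its size factors, 2 other filters, limma voom, library size, no group term, the replicate block, thinning, a prior count of 0.5 and leaving out each embryo; sva 3.50.0 and leaving out 2 embryos were chosen after seeing the data. Some sequences are not reported here.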

Additional observations from a re-analysis of the deposited data

How the results depend on the processing

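The SER comparison called 0 members with DESeq2's size factors, a stricter filter, DESeq2, the library size covariate, the replicate block, surrogate variables, without the 2 embryos of lowest index and in each fit without 1 embryo; it called 1 without a filter and 6 with limma voom. Over all genes the calls were 504 without a filter and 45 with DESeq2, each of 17803 genes. They were 848 with voom and 9 with surrogate variables, each of 8571 genes. For the slope, members rising and falling numbered 7 and 3 with the replicate block (16.4% and 7.51% of all genes), 6 and 4 with voom, and 2 and 1 without the 2 embryos of lowest index; leaving out each embryo gave 9 to 14 rising and 4 to 8 falling. The spread gave 0 members under each alternative run.

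Of the SER log2 fold changes, none of which passed the threshold in edgeR, some changed sign. With the library size covariate the value was -0.000994 for Kif23, -0.17 for Kif2a, 0.11 for Kifc1, 0.0667 for Tubb3 and 0.0239 for Tubb4b. With limma voom the value was 0.37 for Kif18a, -0.13 for Kif3a, -0.0827 for Kifc5b, 0.0799 for Tubb4b, 0.0317 for Tubb5 and -0.0381 for Tubg1. Without a filter the value was 0.0199 for Kif18a. With the replicate block the value was 0.16 for Kif18a. With surrogate variables the value was 0.20 for Kif18a, -0.0901 for Kif18b, -0.0187 for Kif22, -0.15 for Kif23, -0.11 for Kifc5b and -0.0202 for Tubg1. Leaving out each embryo gave -0.0644 to 0.24 for Kif18a, -0.0190 to 0.16 for Kif23, -0.0520 to 0.17 for Kif2a, -0.0207 to 0.33 for Kif3a, -0.25 to 0.0787 for Kifc2, -0.0574 to 0.15 for Kifc5b, -0.36 to 0.16 for Tubb3, -0.14 to 0.0509 for Tubb4b and -0.0261 to 0.13 for Tubg1.

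Of the slopes, those that changed sign belong to members not called on the index in edgeR with all embryos. With DESeq2's size factors the value was -0.0139 for Tubb2a. With the library size covariate the value was -0.0197 for Tubg2. With limma voom the value was -0.22 for Tubb2a, -0.0446 for Tubg1 and -0.25 for Tubg2. Without the group term the value was -0.00115 for Tubb2a. With the replicate block the value was -0.0835 for Kif23, -0.26 for Tubb2a and -0.0226 for Tubg2. In the fit without the 2 embryos of lowest index the value was -0.0606 for Kif1b, -0.00711 for Kif20a, -0.32 for Kifc1, -0.16 for Kifc5b, -0.27 for Tuba3b, -0.00592 for Tubb2a, -0.0454 for Tubg1 and -0.0993 for Tubg2. Leaving out each embryo gave -0.0741 to 0.45 for Kifc1, -0.17 to 0.35 for Tuba3b, -0.0678 to 0.0677 for Tubb2a, -0.0374 to 0.10 for Tubg1 and -0.13 to 0.0769 for Tubg2. The causes were not tested.

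The shared replicate numbers were not shown to pair embryos of the 2 groups. Deviations of embryos with the same number correlated between -0.368 and 0.494 over 15 pairs, above 0.1 in 8 of 15, and 2 of 15 SER embryos correlated best with their own number. Of the 16 slope calls, 8 were kept with the replicate block. The 8 lost were Kif18a, Kif24, Kif2a, Kif3a, Kif4, Tuba1c, Tubb2b and Tubb4b, and Kif14 and Kifc5b were gained. At this depth a member below about 5.63 CPM in the smallest library cannot be told from 0.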
